A study of Saccharomyces cerevisiae with 6 samples.

Results

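AI2 (Q0055), AI5_BETA (Q0075) and BI2 (Q0110) are the 3 genes of the mitochondrial genome among the 312 intron-containing genes whose reads were counted by read class in 3 strains of budding yeast. They were taken by their gene IDs, and the junctions of split reads on chromosome Mito were examined beside them, 158 of 34976 junctions in the deposited junction tables, of which 14 are annotated. The genes were chosen by their read counts in the slow strain, which were close to nothing, so that loss is described here without a test. RNA came from log-phase cultures in YPDA, a glucose medium, with 2 biological replicates per strain. UPF1, which is needed for nonsense-mediated decay, is deleted in all strains. They also have a deleted chromosomal RPB1, carry a TAP tag on RPB3 and express RPB1, the largest subunit of RNA polymerase II, from a LEU2 plasmid. The plasmid allele is RPB1 in WT (strain CKY690), rpb1-G1097D in the fast mutant (strain CKY772) and rpb1-H1085Y in the slow mutant (strain CKY691). Each allele is represented by 1 strain, so that the allele and any other difference between the strains cannot be told apart. Neither RPB1 nor UPF1 is among the 312 genes, so the tables hold no direct check of the genotypes.

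The mitochondrial genome of yeast is not transcribed by RNA polymerase II but by a single-subunit polymerase related to those of bacteriophages, made from the nuclear gene RPO41. Its COX1 and COB genes, for subunit I of cytochrome c oxidase and for cytochrome b, hold group I and group II introns, which fold into catalytic RNAs and are not removed by the spliceosome. Several of these introns are translated in frame with the exon before them into maturases, which help the same or a related intron to splice, or into endonucleases and reverse transcriptases that move the intron. Budding yeast can live by fermentation on glucose with deleted or missing mitochondrial DNA, and deleted genomes often keep a replication origin (ORI).

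AI2 and BI2 are such composite reading frames within larger host genes, and AI5_BETA lies within an intron. AI2 lies on the plus strand of Mito at 13818 to 18830 (R64) and joins COX1 exon 1 (169 nt) across COX1 intron 1 (13987 to 16434, 2448 nt) to a second part of 2396 nt, which runs through COX1 exon 2 into intron 2 and encodes a reverse transcriptase and maturase. BI2 lies at 36540 to 38579 and joins COB exon 1 (415 nt) across COB intron 1 (36955 to 37722, 768 nt) to a part of 857 nt, which runs through COB exon 2 into intron 2 and encodes a maturase. AI5_BETA lies at 24156 to 25255, wholly inside COX1 intron 6 (23747 to 25317), and is annotated with a gap of 35 nt at 24871 to 24905. AI2 also shares sequence with AI1, AI3, AI4 and AI5_ALPHA, and BI2 with BI3 and BI4, so that a read in a shared stretch cannot be assigned to one of them.

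The splice sites are shown because introns removed by the spliceosome nearly always begin with GT and end with AG. Of the 13 Mito introns with at least 5 unique split reads in both libraries of a strain, 4 begin with GT, 3 end with AG and 0 do both. The first 15 and last 15 bases of the intron are in capitals, with 15 bases of exon in lower case, read from the R64 genome on the plus strand.
AI2, 5′ site of COX1 intron 1: cacaattatttaatgGTGCGCCTCTCAGTG
AI2, 3′ site of COX1 intron 1: AATTTGCTATTTCATttttagtagttggtc
BI2, 5′ site of COB intron 1: gtgtttatggacagaGTGAGACAAGTATAA
BI2, 3′ site of COB intron 1: TCTACCTATCACAATtgtcacattgaggta
COX1 intron 7, 5′ site: tggtgggacattttcGTGCGGTCTGAAAGT
COX1 intron 4, 5′ site: ttttgattctttggtCAAACAGTGGCCCTT
The introns of AI2 and BI2 and COX1 intron 7 begin with GT and end with AT, whereas COX1 intron 4 begins with CA. COB exon 2, which follows the intron of BI2, is only 14 nt long (tgtcacattgaggt), and COX1 exon 2 is 36 nt long. The gap of AI5_BETA, in capitals with 15 bases on either side, has a GC content of 82.9% against 17.1% over the 85779 nt of Mito.
AI5_BETA gap: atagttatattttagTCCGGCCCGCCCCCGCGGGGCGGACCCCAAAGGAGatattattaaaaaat
No split read joined the ends of this gap in any library.

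In WT the 3 genes together took 118737 and 140491 reads of the read-class tables, 1.12% and 1.45% of all reads counted there. In the fast mutant they took 105907 and 137816 reads, 0.960% and 1.26%. In the slow mutant they took 501 and 705 reads, 0.00652% (exact 95% interval 0.00596 to 0.00712, counting error only) and 0.00682% (0.00633 to 0.00735). The read-class tables held 7682741 to 11033195 reads per library. Scaled by relative library totals, which the ratio of count to FPKM gave as 1, 1.04, 1.11, 1.12, 1.19 and 1.30 in the order WT, fast, slow, the slow mutant held 0.381% of the WT reads of these genes, a level 262-fold lower. The fast mutant held 85.9% of the WT level. In bulk RNA, fewer cells or genome copies with these transcripts and fewer transcripts per cell cannot be told apart.

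**Figure D1:**
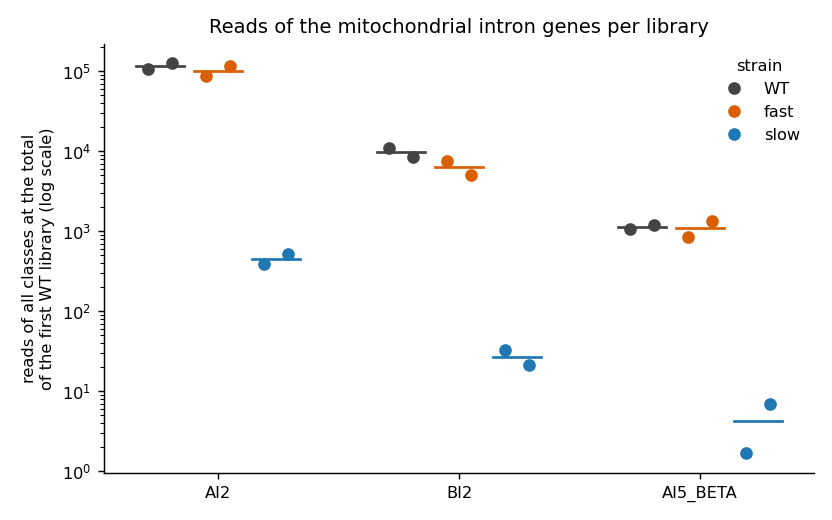
Reads of all classes of AI2, BI2 and AI5_BETA in each library, scaled to the total of the first WT library, on a log axis. Points are libraries (2 per strain) and lines are strain means. WT and fast overlap for AI2 and AI5_BETA, and both slow libraries lie far below the other 4 for each gene.

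AI2, which had the most reads of the 3 over all classes, had 106742 and 130307 reads in WT. The fast libraries held 96568 and 130593 reads of AI2, and the slow libraries 460 and 668. At the total of the first WT library this is 115856 ± 12889 (SD, n = 2) in WT, 101539 ± 20751 in fast and 450.0 ± 91.2 in slow. WT and fast overlapped, and the slow libraries stood at 0.390% of WT. BI2 had 10919 and 8926 reads in WT. Its reads numbered 8396 and 5713 in the fast libraries, and 39 and 28 in the slow ones. Both fast libraries lay below both WT libraries, and the slow libraries stood at 0.277% of WT (exact 95% interval of the ratio of reads 0.214 to 0.352). AI5_BETA had 1076 and 1258 reads in WT. The fast libraries, with 943 and 1510 reads, lay on either side of WT. The slow libraries, with 2 and 9 reads, stood at 0.386% of WT (0.193 to 0.693). Per base of gene length, scaled to the total of the first WT library, AI2 held 21.3 and 24.9 reads in WT. BI2 held 5.35 and 4.20 and AI5_BETA 0.978 and 1.10. The order of the 3 genes by these reads per base was the same in each of the 6 libraries. These counts include reads within introns and do not rank the spliced transcripts. In exon 1 alone AI2 held 3.54 and 3.79 unscaled reads per base in WT, fewer than the 13.4 and 12.8 of BI2.

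The few reads left in slow were divided among the genes and read classes much as in the other strains. AI2 made up 91.8% and 94.8% of the reads of the 3 genes in slow, and 89.9% to 94.8% in the other 4 libraries. Within AI2, 50.2% and 51.8% of the slow reads lay in the intron, compared with 49.3% ± 3.37 (SD, n = 2) in WT and 45.9% ± 2.58 in fast. BI2 exon 1 held 19 of 39 and 17 of 28 reads in slow, and 5558 of 10919 and 5311 of 8926 in WT.

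**Figure D2:**
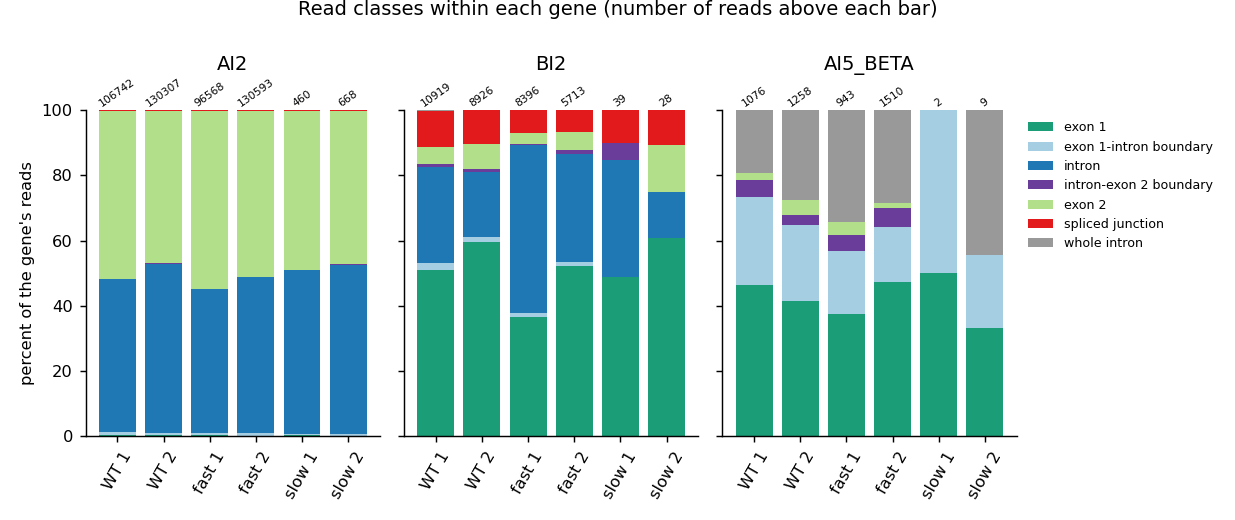
Share of each read class among the reads of AI2, BI2 and AI5_BETA, in percent, for every library, with the number of reads above each bar. AI2 consists almost wholly of intron and exon 2 reads, BI2 holds a larger intron share in fast replicate 1 than elsewhere, and the slow bars of AI5_BETA rest on 2 and 9 reads.

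No nuclear gene of the tables had a fitted change of this size in slow. The lowest fitted change in slow among the 309 nuclear genes was −2.21 on the log2 scale, at YLR227W-B, compared with −8.01 for AI2, −7.98 for AI5_BETA and −8.49 for BI2 from edgeR's quasi-likelihood fit of all 6 libraries. That fit called 25.6% of the 312 genes lower in slow at an adjusted p under 0.05, a share from which nothing is read here because the same contrast chose the genes. Of all calls in slow 63.0% were lower, but only 7.14% with totals of unique split reads in place of the main ones. The genes whose log2 profile over the 6 libraries most resembled the mean profile of the 3 genes were RPS9B, RPL22A, RPL27A, RPL16B and RPL21A, all coding for ribosomal proteins. Their Pearson r was 0.961 to 0.971 over 6 libraries that share their scaling, but their differences in log2 level between slow and WT were only −0.77 to −0.59.

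In fast, BI2 fell to 65.0% of the WT level, a log2 change of −0.62 (standard error 0.20, adjusted p = 0.0292, edgeR's quasi-likelihood test with Benjamini-Hochberg adjustment over 312 genes). This fit called 27 genes, 8.65% of those tested, and in 26.0% of all genes both fast libraries lay below both WT libraries. AI2 (log2 change −0.19, standard error 0.19, adjusted p = 0.776) and AI5_BETA (−0.06, standard error 0.23, adjusted p = 0.943) did not pass. These genes were chosen with earlier results of the same data known, so the p-value of BI2 is no independent support for a fall. The call of BI2 did not hold with TMM factors (adjusted p = 0.0670), without WT replicate 1 (0.700), without WT replicate 2 (0.0798) or without fast replicate 2 (0.889), while its log2 change stayed between −0.94 and −0.37.

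The read classes of BI2 stood at different shares of WT in fast. COB exon 1, the upstream part of BI2, held 3076 and 2988 reads in fast against 5558 and 5311 in WT, 51.0% of the WT level. Reads across the spliced junction numbered 588 and 383 in fast against 1224 and 912 in WT (41.5%). Reads of the second part numbered 270 and 312 in fast against 562 and 685 in WT (42.6%). The boundary of exon 1 and intron held 94 and 62 reads in fast against 238 and 131 in WT (38.6%), and that of intron and second part 43 and 77 against 114 and 86 (54.8%). Reads over the whole intron were few, with 11 and 1 in fast against 20 and 12 in WT. In all of these classes both fast libraries lay below both WT libraries after scaling. Reads inside the intron, COB intron 1, numbered 4314 and 1890 in fast against 3203 and 1789 in WT, 114% of WT with single pairs of libraries from 52.5% to 226%, and the first replicate was the higher one in both strains. In AI2 the class of COX1 exon 1 also stood at 51.3% (382 and 313 reads in fast, 598 and 640 in WT) and the spliced junction at 61.9%. Its intron, COX1 intron 1, and its second part stood at 81.6% and 94.2%, and its boundary classes at 89.3% and 82.2%, with WT and fast libraries overlapping in each. In AI5_BETA only the class at the upstream end of the gap had both fast libraries below both WT libraries (69.0% of WT), while the classes of its first part (95.4%), downstream end (128%), second part (67.4%) and whole gap (124%) overlapped. Classes of 1 gene come from the same libraries and were not tested one by one.

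How much of a transcript is unspliced was read from pre-mRNA and mRNA reads. The former cross an intron end or lie within the intron, and the latter join the exons. The pre-mRNA fraction is pre-mRNA reads over the sum of both kinds. The fitted ratio is pre-mRNA reads over mRNA reads. In BI2 the pre-mRNA fraction was 74.4% and 68.7% in WT and 88.3% and 84.1% in fast. This rise was known when the gene was chosen, so it is given as a description with no test. The fitted log2 change of the ratio was 1.33 (standard error 0.32), in a fit that called 9.20% of 250 genes, from which nothing is read here for BI2. With boundary reads alone as pre-mRNA the log2 change was 0.15, and with 1 library left out it lay between 1.07 and 1.58. With the unique split reads of COB intron 1 in place of the junction class, an alternative added after seeing the data, it was 1.07. In slow the pre-mRNA fraction was 80.0% of 20 reads (exact 95% interval 56.3 to 94.3) and 57.1% of 7 reads (18.4 to 90.1), and the ratio fit called 0.400% of all genes there.

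By this measure the pre-mRNA fraction of AI2 was 99.2% and 99.3% in WT and 99.4% in both fast libraries. In slow it was 99.6% and 99.4% (lower ends of the exact 95% intervals 97.6% and 98.0%). The change in fast did not pass the test (log2 change 0.40, standard error 0.12, adjusted p = 0.0917, edgeR), although both fast libraries lay above both WT libraries. Of the pre-mRNA reads of AI2 in WT, 915 and 1105 crossed an intron end, while 50091 and 67352 lay within the intron. COX1 intron 1 had 1739 and 1944 unique split reads in these libraries. Whether the reads within the intron come from unspliced RNA was not tested, so the fraction does not give the share of unspliced transcripts. AI5_BETA had no read joining its parts in any library, so that no ratio can be formed. None lay inside its gap either, which at 35 nt is shorter than the reads sequenced. Reads that ran over the whole gap numbered 209 and 347 in WT. The fast libraries had 324 and 431 of them, and the slow libraries 0 and 4.

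The junction class held fewer reads than the junction tables for both introns. The junction tables held 1739 and 1944 unique split reads of COX1 intron 1 in WT, against 408 and 506 reads in the junction class of AI2, which is 23.5% and 26.0% of them. For COB intron 1 they held 8579 and 8907 split reads against 1224 and 912, 14.3% and 10.2%. In spliced COX1 and COB the exon that follows is only 36 and 14 nt long, so a read there runs on beyond the annotated second part of AI2 or BI2, and the effect of this on the class was not tested. With the split reads as mRNA, the pre-mRNA fraction of BI2 was 29.3% and 18.4% in WT and 52.4% and 27.3% in fast, now with overlapping strains, and that of AI2 was 96.7% and 97.2% in WT and 97.4% and 97.9% in fast.

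Unique split reads on Mito numbered 60505 and 62482 in WT. There were 33769 and 43268 in the fast libraries and 332 and 293 in the slow ones. They made up 0.999% and 1.17% of all unique split reads in WT. This share was 0.492% and 0.649% in fast but 0.00804% and 0.00531% in slow, from libraries with 4127729 to 6863818 unique split reads. Annotated introns made up 216 and 247 of the reads in slow. Together they stood at 0.309% of WT in slow and at 57.2% in fast. The 7 introns of COX1 together stood at 0.317% in slow, the 5 of COB at 0.306% and the intron of the 21S rRNA gene at 0.288%. The single introns of COX1 and COB ranged from 0.246% (COX1 intron 5) to 0.387% (COX1 intron 2).

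**Figure D3:**
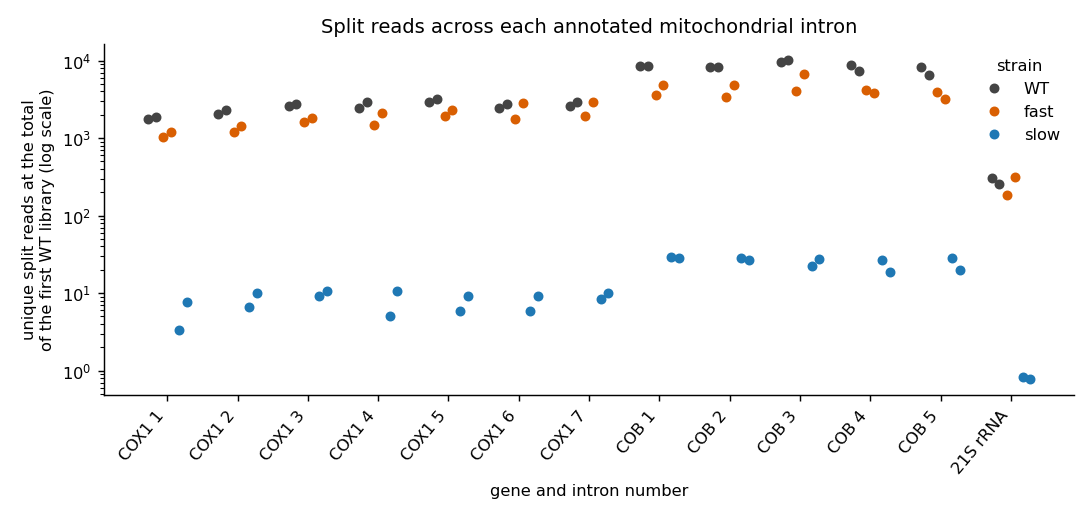
Unique split reads across each of the 13 annotated Mito introns in every library, scaled to the total of the first WT library, on a log axis. COB introns lie above COX1 introns in all 6 libraries, and all slow points lie below all others of the same intron.

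The 5 introns of COB carried more split reads than those of COX1. In WT single COB introns had 6709 to 10638 reads and single COX1 introns 1739 to 3378. Along COX1 the reads were lowest at intron 1, with 1739 and 1944 in WT, and intron 7 had 2591 and 3042, a ratio of 1.49 and 1.56. The 21S rRNA intron, which holds a homing endonuclease gene, had 303 and 266. The share of COB among COX1 and COB reads was 72.0% and 68.5% in WT. In the fast libraries it was 63.8% and 61.4%, and in the slow libraries 75.3% (69.0 to 81.0) and 64.2% (57.9 to 70.2). Both fast libraries lay below both WT libraries, while the slow libraries lay on either side of WT. With 2 libraries against 2, an exact two-sided permutation test cannot give a p below 0.333, so this share was not tested further.

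In fast the introns of COB stood lower against WT than those of COX1, a difference that was not tested. COB introns together were at 50.7% of WT, with pairs of libraries from 44.4% to 57.4%, and single COB introns ranged from 48.7% (intron 5) to 54.8% (intron 3). COX1 introns 1 to 5 stood at 62.5%, 60.8%, 64.1%, 66.5% and 68.7%. Introns 6 and 7, the last of COX1, stood at 88.5% and 87.9%, and the 21S rRNA intron at 90.7%, with overlapping strains for these 3. In the other 10 of 13 introns both fast libraries lay below both WT libraries, which held for 17.9% of all 1285 junctions tested. These introns all lie in COB or COX1, and introns of the same gene are not independent observations, so the count of introns is no count of separate changes. Intron 7 of COX1 had 1.83 and 2.43 times the reads of intron 1 in fast, above both WT ratios.

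By edgeR's quasi-likelihood test over those 1285 junctions, 0 of 13 Mito introns passed at an adjusted p under 0.05 in fast, where 0.545% of all junctions were called. 9 of them had an unadjusted p under 0.05, against 277 of all 1285 junctions, and DESeq2 called 10, against 96 of all 1285. COB introns 1, 2, 4 and 5 came nearest, with log2 changes of −1.02, −0.99, −1.03 and −1.04 (adjusted p = 0.0683 each), followed by COX1 intron 3 (−0.64, adjusted p = 0.0773) and COX1 intron 2 (−0.72, adjusted p = 0.0913). COB intron 3 changed by −0.87 (adjusted p = 0.0935). TMM factors called 3 of the COB introns, among 33 of the 1285 junctions, and a fit without the minimum of reads called 4, among 24 of 19994. In slow, 1.32% of all junctions were called lower, and the fitted log2 changes of the Mito introns ran from −8.65 to −8.00, given here without a test. Among 1272 nuclear junctions 13 also had a fitted change below −7, none with more than 50 unique reads in a WT library, so that at such depth the size of a fitted change says little.

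**Figure D4:**
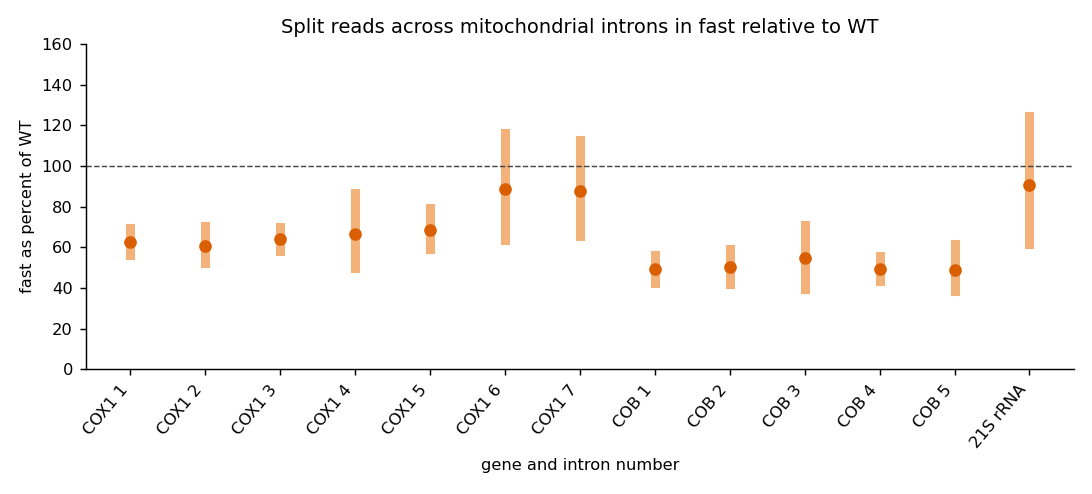
Unique split reads across each annotated Mito intron in fast as percent of WT. Points are the ratio of summed reads scaled by library totals, bars span the 4 pairs of fast and WT libraries scaled alike, and the dashed line marks WT. All bars of COB and of COX1 introns 1 to 5 end below 100%, and those of COX1 introns 6 and 7 and the 21S rRNA intron cross it.

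Unannotated junctions on Mito were few in every library, with 93 and 106 unique reads in WT. Fast had 95 and 72 and slow 116 and 46. They were 0.154% to 0.281% of the unique Mito reads in WT and fast, but 34.9% and 15.7% in slow, where annotated reads were nearly lost. Of 144 such junctions 125 occurred in 1 library only, and 0 had 5 or more unique reads in both libraries of a strain. Those highest in WT each had reads in only 1 of the WT libraries. The highest were 59414 to 60461 in the 21S rRNA gene (13 reads in WT replicate 2), 65063 to 65716 (13 in WT replicate 1), 33161 to 33818 (11 in WT replicate 1), 476 to 85662 and 34647 to 34670 (10 each in WT replicate 1), and 60487 to 60529 in the 21S rRNA gene (10 in WT replicate 2, 27 in slow replicate 1). They were followed by 59740 to 60521, 27545 to 27581, 75620 to 76353 and 60339 to 60413 with 8 reads each, a tie at the end of a list set to 8.

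Unannotated junctions near the replication origin ORI5 were found almost wholly in slow. Within 1500 nt of the centre of ORI5, a window chosen after the values were seen that covers 3.50% of Mito, WT had 0 of 27 and 0 of 30 unannotated junctions. Fast had 1 of 25 and 0 of 34, and slow had 12 of 24 and 27 of 29, counting also junctions that have only multiply mapped reads. Such a read can be counted at several junctions, so counts of junctions here are not counts of separate events. In unique reads, WT had 0 of 93 and 0 of 106 and fast 1 of 95 and 0 of 72, whereas slow had 28 of 116 and 41 of 46. The slow libraries thus held the most unique reads here in absolute number. Junctions near an origin were not particular to slow, since the window of the same width around ORI6 held 7 of 27 and 4 of 30 unannotated junctions in WT. Fast had 2 of 25 and 7 of 34 there, and slow 2 of 24 and 7 of 29. In unique reads the ORI6 window held 8 and 6 in WT. Fast had 2 and 7 and slow 3 and 13, and junctions that join the windows of ORI6 and ORI5 count in both. The other reads of slow replicate 1 lay mainly in the 21S rRNA gene, with 76 of 116 unique reads, where slow replicate 2 had 0, WT 0 and 45, and fast 14 and 16. Unannotated junctions with an end in COX1 had 3 and 15 unique reads in WT. Fast had 17 and 18, and both slow libraries 0.

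**Figure D5:**
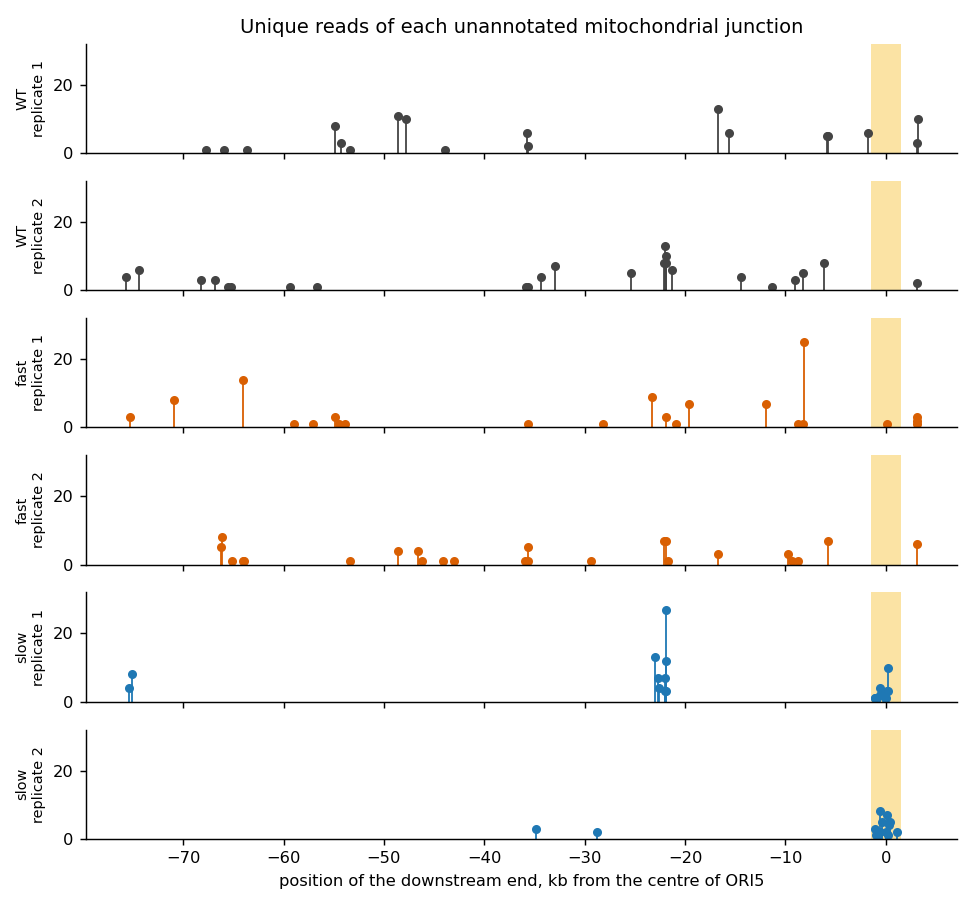
Unique reads of each unannotated Mito junction against the distance of its downstream end from the centre of ORI5, in kb, for the 6 libraries. The shaded band marks 1500 nt on either side, which holds 1 read in the 4 WT and fast libraries, 28 in slow replicate 1 and 41 in slow replicate 2.

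ORI5 lies at 82329 to 82600 and is 272 nt long. It is printed because 13 of the 35 junctions of the window, multiply mapped reads included, end within it, at 5 positions, whose bases are in capitals.
ORI5: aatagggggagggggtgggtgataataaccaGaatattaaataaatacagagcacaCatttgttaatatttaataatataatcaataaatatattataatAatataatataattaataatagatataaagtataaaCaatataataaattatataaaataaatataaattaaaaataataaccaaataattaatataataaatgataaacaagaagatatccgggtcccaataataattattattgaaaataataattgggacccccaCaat
The downstream ends of all 35 junctions lay between 81405 and 83592, and 8 junctions had both ends within the window. Junctions from 4071, 12568, 45607, 47916, 54626 and 56589 to 82385 had 0 unique reads, with 8 to 10 multiply mapped reads each in slow replicate 2. The end at 82429 also rests on multiply mapped reads alone (82268 to 82429, 11 in slow replicate 1). A multiply mapped read can be counted at several junctions, so these need not be separate events. The 3 junctions found in both slow libraries and in no other, multiply mapped reads included, were 65797 to 81428, 79637 to 81849 and 81781 to 81864, named after their values were seen. The last of them skipped 84 nt and had 4 and 8 unique reads. At 65797 to 81428 the bases cggaaccccgaaaggag occur at both ends, so a read there can be placed in more than one way. Whether the reads near ORI5 and the loss of reads of AI2, BI2 and AI5_BETA have a common source was not tested.

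Of 10 nuclear genes of mitochondrial proteins in the same tables, 3 rose in slow by edgeR's test of levels, in a fit that called 15.1% of the 312 genes higher. None of the 10 was called lower (0 at an unadjusted p under 0.05 and 0 with DESeq2). Over all 312 genes edgeR called 25.6% lower, and DESeq2 called 103 lower. DESeq2 called 5 of the 10 higher, and 89 of all 312. MRPL44, a protein of the large mitochondrial ribosomal subunit, had 1765 and 1791 reads in WT and 3329 and 4158 in slow (log2 change 0.78, adjusted p = 0.0015). CMC2, which takes part in cytochrome c oxidase assembly, had 1336 and 1482 reads in WT and 2705 and 3286 in slow (log2 change 0.80, adjusted p = 0.0013). COX5B, the isoform of a cytochrome c oxidase subunit made when oxygen is low, had 3665 and 3405 reads in WT and 5172 and 7338 in slow (log2 change 0.53, adjusted p = 0.0291). For each of these 3 genes both slow libraries lay above both WT libraries after scaling. This adds nothing to the calls, since it was looked at only in the genes called. The list and the tests were chosen with earlier results of these data known, so the p-values are no independent support for a rise. The median log2 change of the 10 genes in slow was 0.15, compared with −0.12 over all genes tested. For the splicing ratio in slow, 0 of 10 passed with edgeR, where 6 had an unadjusted p under 0.05 and DESeq2 called 2, all of them lower. Over all 250 genes tested these counts were 1, 36 and 9. In fast 0 of 10 passed the test of levels with edgeR (1 lower and 3 higher at an unadjusted p under 0.05, 3 called higher by DESeq2). Over all 312 genes 27 passed with edgeR, 60 had an unadjusted p under 0.05, and DESeq2 called 87, 38 of them higher. CMC2 passed the test of the ratio in fast, with a pre-mRNA fraction of 11.4% and 12.6% in WT and 4.37% and 4.16% in fast (log2 change −1.61, adjusted p = 0.0456, edgeR), a change already known when the list was set, but only 3 of 12 alternatives kept this call. Without WT replicate 1 the calls of MRPL44 (adjusted p = 0.0676), CMC2 (0.0949) and COX5B (0.181) in slow were lost, and that of COX5B was also lost without WT replicate 2 (0.254), slow replicate 2 (0.141) or either fast library (0.0968 and 0.0961).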

How the data were processed

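RNA of 3 yeast strains (WT, fast and slow, 2 libraries each, assigned from the sample labels) was examined. The authors depleted rRNA, sequenced stranded libraries from both ends and mapped the reads to R64 (sacCer3) by STAR at its defaults (version not given in the sources used here). They deposited unnormalized counts of split reads per junction, unique and multiply mapped, and counts for 7 read classes per gene from dice-count (DICEseq), beside FPKM. Of the FPKM values the authors deposited, only relative library totals were used (median of count divided by FPKM over 221 to 226 genes). Strand, motif and annotation codes deposited beside the junctions (other) were read as labels.

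Genes and junctions were tested by quasi-likelihood in edgeR 4.0.16 under R 4.3.3, all strains in one fit. Levels were filtered by filterByExpr. Ratios needed 10 or more reads of each kind, summed over the libraries. Their model held each library and the interaction of class and strain. Junctions needed 5 or more unique reads in each library of some strain. P-values were adjusted by Benjamini-Hochberg over the whole table (threshold 0.05) and scripts were tested on simulated data. Replicates are separate cultures of 1 strain, and p-values measure the spread between them. DESeq2 1.42.0, other scalings and filters, a replicate block and leaving out each library were tried. The 3 genes, the list of nuclear genes and the tests were chosen with earlier results of these data known. Text names the 3 genes in every class, Mito junctions past the minimum, the 8 unannotated ones highest in WT, list members that pass a test, and the 5 genes (at least 100 reads) of most similar log2 profile (pseudocount 0.5). Sequences and positions are from the RefSeq copy of R64. The sources name no molecular identifiers, so reads may be PCR copies. Shares have exact Clopper-Pearson 95% intervals, which cover counting error only. Summaries were made in Python 3.11.15 (pandas 2.3.3, scipy 1.17.1) and plots in matplotlib 3.10.9.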

Additional observations from a re-analysis of the deposited data

Results flagged for a closer look

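Multiply mapped split reads were not used in the comparisons above, apart from one alternative and the counts of unannotated junctions. Within 1500 nt of the centre of ORI5 they numbered 40 in slow replicate 1 and 88 in slow replicate 2, and 0 in both WT libraries and both fast libraries. The window was chosen after the values were seen. Such reads were not confined to slow at other origins, as the same window around ORI6 held 27 and 1 in WT. Fast had 0 and 34 there, and slow 4 and 27. A multiply mapped read can be counted at several junctions, since ORI sequences resemble each other, so these are not numbers of separate reads.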

How the results depend on the processing

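Each test was repeated under other settings, and counts of calls depended on them. For the level in fast, 27 genes were called, against 70 with TMM factors, 87 with DESeq2, 94 with totals of unique split reads and 49 with WT and fast alone, and 14 to 52 with 1 library left out. For the level in slow, 127 were called, against 192 with DESeq2, 196 with totals of unique split reads and 58 with WT and slow alone, and 33 to 154 with 1 library left out. The totals of unique split reads moved the median log2 change of all genes in slow from −0.12 to 0.42, and lower calls from 63.0% to 7.14% of those made, while TMM factors gave 44.9%. In fast they gave 80.9% lower calls instead of 63.0%. For the ratio in fast, 23 of 250 genes tested were called, against 41 with DESeq2 and 7 of 115 with intron reads alone. There were 10 of 244 with WT and fast alone, and 0 to 18 with 1 library left out. For the ratio in slow, 1 of 250 was called, against 9 with DESeq2, 0 of 115 with intron reads alone and 0 to 1 with 1 library left out. For junctions in fast, 7 of 1285 tested were called, against 33 with TMM factors and 96 with DESeq2. There were 24 of 19994 without the minimum and 4 of 2237 with multiply mapped reads added. With 1 library left out, 0 to 11 were called, and these fits tested 2579 to 3131 junctions. For junctions in slow, 20 were called, against 73 with TMM factors, 164 with DESeq2 and 54 without the minimum. With 1 library left out 13 to 20 were called, and these fits tested the same numbers of junctions as in fast. Lower calls were 85.0% of those made for junctions in slow, 47.9% with TMM factors and 73.2% with DESeq2. The 10 nuclear genes of mitochondrial proteins had 4 calls over the level and ratio tests of both mutants, against 12 with DESeq2, 11 with TMM factors and 10 with totals of unique split reads, and 0 to 6 with 1 library left out.

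The labels number the replicates, but name no shared batch. Deviations from the strain means correlated between libraries of the same number at 0.645 (WT and fast), 0.322 (WT and slow) and 0.310 (fast and slow) over 304 genes, with only 2 numbers. A block for the number gave 33 genes for the level in fast, 31 for the ratio in fast, 0 for the ratio in slow, 31 junctions in fast and 37 in slow. All 5 COB introns then passed in fast (adjusted p = 0.0015 to 0.0065), and the ratio of AI2 passed too (log2 change 0.40, adjusted p = 0.0497), while that of CMC2 did not (0.0502).

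In slow the fitted log2 changes of the 3 genes stayed between −9.32 and −7.34 and those of the 13 introns between −9.03 and −7.66 under all settings tried. In fast, with 1 library left out, log2 changes ranged from −0.42 to 0.00443 for AI2, from −0.43 to 0.24 for AI5_BETA, from −0.57 to 0.13 for COX1 intron 6, from −0.52 to 0.088 for COX1 intron 7 and from −0.58 to 0.19 for the 21S rRNA intron. These turned positive without fast replicate 1, and AI5_BETA also without WT replicate 2 (0.027), none past the threshold. The cause of these differences was not tested. In slow, 2 to 39 reads per library limit every value of BI2 and AI5_BETA.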
